A study of Mus musculus with 6 samples.

Results

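The Lsd1 peaks at 9 homeobox genes that mark muscle precursors and mesenchyme were examined, namely Pax3, Pax7, Pitx1, Msx1, Msx2, Meox1, Meox2, Prrx1 and Lbx1, out of 26180 mouse genes with a curated RefSeq transcript. A peak was counted for a gene when its centre lay within the curated RefSeq span of the gene on mm10 or within 10 kb on either side, which gave windows of 24.1 to 116 kb and 548 kb in all. The cells were C2C12, a mouse myoblast line that fuses into myotubes in low serum, and Lsd1 is a histone demethylase that removes methyl groups from lysines of histone H3. The 3 conditions were wild-type cells at day 1 of myogenic differentiation in medium with 2% horse serum, wild-type cells at day 1 of adipogenic differentiation, and LSD1(OE) cells at day 1 of adipogenic differentiation. Adipogenic medium held 10% FCS with the phosphodiesterase inhibitor isobutylmethylxanthine at 0.5 mM, indomethacin at 125 nM, the glucocorticoid dexamethasone at 5 μM, insulin at 850 nM, the thyroid hormone T3 at 1 nM and the PPARγ agonist rosiglitazone at 1 μM, and these agents were shared by both adipogenic conditions and absent from the myogenic one. LSD1(OE) cells carried a lentiviral Flag-tagged LSD1 under a tetracycline-dependent promoter, were selected with G418 and received doxycycline, so that LSD1 level, the selected line and doxycycline cannot be told apart in this condition. Each condition had 1 ChIP library and 1 input library, so no value below has a replicate and no test between conditions was made. The files hold peaks and no transcript levels, so that neither the identity of the cells nor the amount of LSD1 was checked here.

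Pax3 and Pax7 are paired-box factors of muscle precursors, Pax3 in the embryonic dermomyotome and migrating limb precursors and Pax7 in adult satellite cells. Lbx1 acts downstream of Pax3 in migrating limb muscle precursors, and Meox1 and Meox2 are homeobox factors of the somite. Pitx1 specifies hindlimb identity, Msx1 and Msx2 are homeobox repressors of limb mesenchyme, of which Msx1 blocks the differentiation of myoblasts, and Prrx1 marks limb and connective tissue mesenchyme.

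After the duplicate limit of MACS, the ChIP libraries held 46155625 tags in myogenic, 63915769 in adipogenic and 55193310 in LSD1(OE) cells, and gave 43426, 18893 and 33533 peaks. The smallest peaks held 27, 35 and 30 tags, so that weaker occupancy was not detectable with this depth and peak calling. The median score of all peaks was 122, 112 and 116, where the score is 10 times −log10 of the p-value against the local background. Scores and fold enrichments were computed after each ChIP library had been scaled up to its larger input by 1.90, 1.28 and 1.82, so these values are given for each library and are not on one scale between libraries.

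Peaks were found at 6 of the 9 genes in at least 1 library, while Pitx1, Msx2 and Meox2 had none in any library. In myogenic cells 6 genes had a peak, against 62.5% of all genes in the same kind of window. In adipogenic cells 3 genes had a peak, against 41.2% of all genes, and in LSD1(OE) cells 5 genes, against 53.9%. The windows held 14 peaks in myogenic, 6 in adipogenic and 14 in LSD1(OE) cells, or 2.56, 1.10 and 2.56 peaks per 100 kb. Over the windows of all genes the rates were 2.99, 1.35 and 2.27 peaks per 100 kb. Prrx1 alone accounted for 57.1%, 50% and 64.3% of the peaks, and without it the rates were 1.31, 0.653 and 1.09 peaks per 100 kb. Because Prrx1 had the most peaks, leaving it out could only lower these rates, and the rates over all genes were not trimmed likewise. Of the 34 peaks, 25 had their centre in an intron, 5 in an exon, 3 upstream and 1 downstream of the gene. That adipogenic cells had the fewest peaks held with a score limit of 100 but not with lists of equal length. With a score of at least 100, 6, 3 and 5 peaks remained, and with the 18893 highest-scoring peaks of each library 4, 6 and 5 peaks at 2, 3 and 3 genes. Shares of all genes under these limits were not computed. All 34 were closer to the TSS of the gene than to that of any other gene with a curated transcript. Scores were below 100 for 20 of the 34 peaks (58.8%), a share that was 43.7%, 44.1% and 44.1% over all peaks of the 3 libraries.

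**Figure D1:**
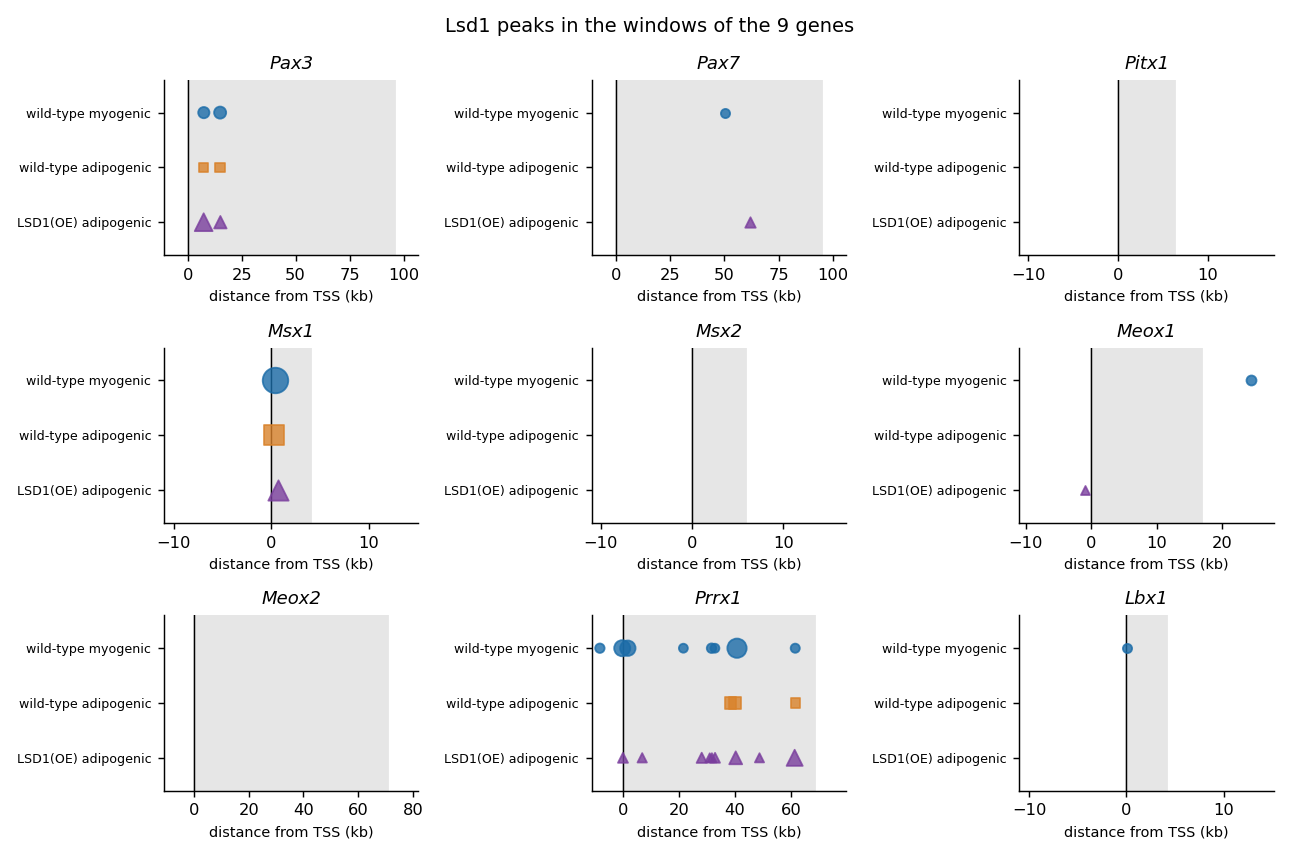
Peaks in the windows of the 9 genes by library. The x axis is the distance of the peak centre from the TSS in kb, positive into the gene, grey marks the gene span, and larger symbols have higher scores. Msx1 and Pax3 have peaks at the same places in all 3 libraries, the 20 peaks of Prrx1 are spread over the gene, and Pitx1, Msx2 and Meox2 are empty.

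The 34 peaks merged into 20 regions, of which 5 were shared by all 3 libraries, 3 by myogenic and LSD1(OE) cells, and 12 were found in 1 library. With a limit of 0.1% on the false discovery rate (FDR) that the peak caller gives each peak, a score of at least 100 or equal numbers of peaks, 2 regions were shared by all 3. The 5 shared regions were 2 in Pax3, 2 in Prrx1 and 1 at Msx1. All 3 regions shared by myogenic and LSD1(OE) cells were in Prrx1. Of the regions in 1 library, 6 were in myogenic, 5 in LSD1(OE) and 1 in adipogenic cells. The shares of the 20 regions were 25% in all 3 libraries, 15% in myogenic and LSD1(OE), 30.0% in myogenic alone, 25% in LSD1(OE) alone and 5.0% in adipogenic cells alone. Over the 56729 merged regions of the genome the same shares were 20.6%, 12.2%, 35.9%, 20.8% and 3.70%.

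The bases under the strongest peaks of 5 genes are shown so that the CpG-rich sites at Msx1 and Pax3 can be told from the other intronic and intergenic sites. Each run is 200 bases of mm10 on the minus strand, which is the sense strand of these genes, printed 5′ to 3′. At Msx1 the bases immediately upstream of the TSS are given, chr5:37824586-37824785, which lie inside the peak. Elsewhere the run is centred on the summit, at chr1:78189623-78189822 and chr1:78182003-78182202 in Pax3, chr4:139771153-139771352 in Pax7, chr1:163273347-163273546 in Prrx1 and chr11:101869833-101870032 downstream of Meox1. Capitals mark CG dinucleotides in the first 2 runs and E-boxes (CANNTG) in the others.
Msx1 upstream of the TSS: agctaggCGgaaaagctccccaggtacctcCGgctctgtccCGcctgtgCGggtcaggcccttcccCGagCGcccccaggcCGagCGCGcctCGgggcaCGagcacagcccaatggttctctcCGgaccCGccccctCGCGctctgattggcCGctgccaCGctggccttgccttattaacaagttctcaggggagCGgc
Pax3 intron at 7.41 kb: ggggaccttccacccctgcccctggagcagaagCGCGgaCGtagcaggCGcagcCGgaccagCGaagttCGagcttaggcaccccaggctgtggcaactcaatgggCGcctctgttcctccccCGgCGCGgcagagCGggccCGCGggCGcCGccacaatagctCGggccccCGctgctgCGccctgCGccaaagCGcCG
Pax3 intron at 15.1 kb: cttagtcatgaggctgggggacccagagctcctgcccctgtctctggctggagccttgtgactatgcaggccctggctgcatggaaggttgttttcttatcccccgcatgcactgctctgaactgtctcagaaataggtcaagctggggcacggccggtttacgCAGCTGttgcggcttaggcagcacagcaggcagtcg
Pax7 intron at 61.7 kb: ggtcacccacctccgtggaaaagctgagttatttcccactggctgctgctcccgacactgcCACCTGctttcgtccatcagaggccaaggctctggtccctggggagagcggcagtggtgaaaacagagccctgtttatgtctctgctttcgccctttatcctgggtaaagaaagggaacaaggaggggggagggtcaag
Prrx1 intron at 40.5 kb: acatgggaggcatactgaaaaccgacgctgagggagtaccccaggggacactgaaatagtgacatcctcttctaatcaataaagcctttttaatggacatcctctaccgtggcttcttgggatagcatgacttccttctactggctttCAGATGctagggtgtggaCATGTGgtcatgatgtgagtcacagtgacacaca
Meox1 downstream: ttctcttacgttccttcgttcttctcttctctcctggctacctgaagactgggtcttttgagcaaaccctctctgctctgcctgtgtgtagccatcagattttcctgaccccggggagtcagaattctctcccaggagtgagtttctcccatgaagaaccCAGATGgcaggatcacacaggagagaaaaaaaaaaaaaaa

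The Msx1 run held 18 CG dinucleotides at 69.0% GC and the Pax3 run at 7.41 kb 22 at 73.0% GC. The second Pax3 run held 6 at 59.0% GC, the Pax7 run 5 at 57.0% GC, and the Prrx1 and Meox1 runs each 3 at 47.5% GC. The median over all summit windows of 200 bases was 3 in myogenic, 4 in adipogenic and 3 in LSD1(OE) cells. The Msx1 run was not centred on a summit, and the Msx1 summit windows held 22 or 23 CG dinucleotides. A CAGCTG, the form of E-box preferred by myogenic bHLH factors, was present in the second Pax3 run, and the Prrx1 run held a match to TGANTCA, the AP-1 motif, beside its 2 E-boxes.

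Msx1 (chr5:37820491-37824585, minus strand) had the strongest peak of the 9 genes in every library, at its promoter. In myogenic cells it held 165 tags and scored 752, in adipogenic cells it held 168 tags and scored 412, and in LSD1(OE) cells it held 167 tags and scored 457. These scores were higher than those of 94.2%, 92.9% and 88.7% of all peaks of the library, and the FDR was 0% in all 3. The fold enrichment was 4.13, 4.36 and 2.88. The peak centres lay 431, 274 and 683 bp into the gene, in the coding part of exon 1, and the summits 71 bp and 42 bp inside exon 1 in myogenic and LSD1(OE) cells and 40 bp upstream of the TSS in adipogenic cells. All 3 libraries therefore had their summit within 71 bp of the TSS. The tag density was 2.09 tags per kb of peak and per 1000000 ChIP tags in myogenic cells (95% exact Poisson interval 1.78 to 2.43), 1.59 in adipogenic cells (1.36 to 1.85) and 1.38 in LSD1(OE) cells (1.17 to 1.60). These intervals and those below cover counting error only. The density ratio of adipogenic to myogenic cells was −0.40 on the log2 scale (95% interval −0.72 to −0.08), close to the median of −0.32 over the 14149 regions shared by these libraries. The ratio of LSD1(OE) to myogenic cells was −0.60 (−0.92 to −0.28), below the median of −0.19 over 18581 shared regions and lower than in all but 7.90% of them. For LSD1(OE) over wild-type adipogenic cells, in the same medium, it was −0.21 (−0.52 to 0.11), an interval that includes 0. That ratio was lower than in all but 7.31% of the regions shared by the adipogenic and LSD1(OE) libraries. The called length of the peak also differed, at 1711, 1657 and 2200 bp. Without division by length the peak held 3.57, 2.63 and 3.03 tags per 1000000 ChIP tags. Within the Msx1 window, a RefSeq enhancer element upstream of the gene lay 530 bp from the merged region and another 3158 bp from it, and neither was overlapped by a peak.

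**Figure D2:**
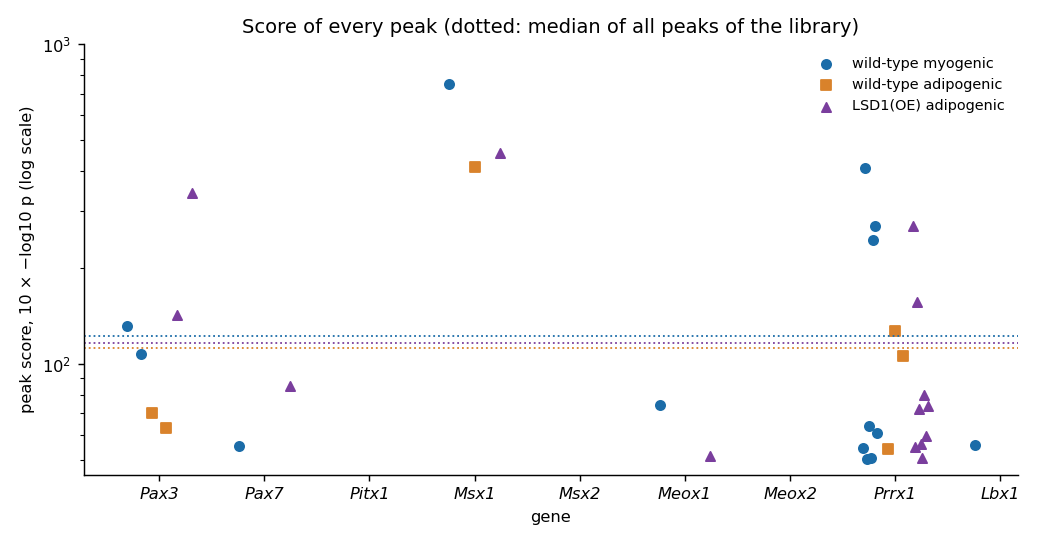
Score of every peak in the 9 windows (log scale) by gene and library, with a dotted line at the median score of all peaks of each library. Msx1 lies far above the medians in all 3 libraries, most Prrx1 peaks lie below them, and the Pax7, Meox1 and Lbx1 peaks are all below them.

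Pax3 (chr1:78101267-78197136, minus strand) had the same pair of peaks in all 3 libraries, both in intron 4, and none at its promoter. The region at 7.41 kb (chr1:78189148-78190313) had a score of 108 with 48 tags in myogenic cells, 63.2 with 51 tags in adipogenic cells and 342 with 100 tags in LSD1(OE) cells. The FDR there was 0.1%, 0.45% and 0%. The density was 1.16 (0.855 to 1.54) in myogenic, 1.04 (0.773 to 1.36) in adipogenic and 1.55 (1.26 to 1.89) in LSD1(OE) cells, on the scale defined for Msx1. LSD1(OE) cells thus had the highest of the 3 densities. The log2 ratio of LSD1(OE) to wild-type adipogenic cells was 0.58 (0.08 to 1.10), higher than in 97.1% of the 13053 regions shared by these libraries, whose median was 0.13. Against myogenic cells the log2 ratio was 0.42 (−0.09 to 0.95), an interval that includes 0, and it was higher than in 98.1% of shared regions. The called lengths differed, at 897 bp in myogenic, 769 bp in adipogenic and 1166 bp in LSD1(OE) cells. Without division by length, on the scale given for Msx1, the peaks held 1.04, 0.798 and 1.81 in that order. These values lay further apart than the densities, and intervals of their ratios were not computed. This region is CpG-rich, and the summit windows of all 3 libraries held between 22 and 24 CG dinucleotides in 200 bases.

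The second Pax3 region at 15.1 kb (chr1:78181451-78182597) had a score of 132 with 55 tags in myogenic, 70.4 with 61 tags in adipogenic and 142 with 69 tags in LSD1(OE) cells. The 3 densities were 1.21 (0.912 to 1.58), 1.03 (0.790 to 1.33) and 1.16 (0.905 to 1.47), and their intervals overlapped. The log2 ratio of LSD1(OE) to adipogenic cells was 0.17 (−0.35 to 0.69). The summit windows of all 3 libraries held the same CAGCTG. RefSeq annotates a promoter and several enhancer elements at Pax3, and no peak overlapped one, the nearest Pax3 element being 6387 bp away. In adipogenic cells both Pax3 peaks fell below a score of 100 and were lost at an FDR limit of 0.1%, which left 1 in myogenic cells. With equal numbers of peaks per library, Pax3 had none in myogenic cells.

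Pax7 (chr4:139738081-139832968, minus strand) had 1 peak in myogenic cells and 1 in LSD1(OE) cells, at different places in the gene, and none in adipogenic cells. The myogenic peak (chr4:139782430-139783049) lay in intron 5, 50.2 kb from the TSS. It held 30 tags and scored 55.5, at an FDR of 0.35%. The LSD1(OE) peak (chr4:139770812-139771715) lay in intron 7, 61.7 kb from the TSS. It held 52 tags and scored 85.5, at an FDR of 0.21%. Both scores were below the median of their library. The densities were 1.05 (0.707 to 1.50) and 1.04 (0.778 to 1.37). Neither peak remained when the score was divided by the scaling factor of the library and kept at 50 or more.

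Prrx1 (chr1:163245119-163313650, minus strand) had the most peaks of the 9 genes, with 8 in myogenic, 3 in adipogenic and 9 in LSD1(OE) cells. At least as many peaks were found in the windows of 3.54%, 8.98% and 1.86% of all genes. Its window of 88.5 kb was itself long, a length reached by 14.1% of genes. At 9.04, 3.39 and 10.2 peaks per 100 kb, the window exceeded the rates over all gene windows given above. The 20 peaks merged into 12 regions, 2 in all 3 libraries, 3 in myogenic and LSD1(OE) cells and 7 in 1 library. Scores of 100 or more were reached by 3 of the myogenic, 2 of the adipogenic and 2 of the LSD1(OE) peaks, and the other 5, 1 and 7 peaks scored between 50.4 and 79.9.

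At the Prrx1 promoter, myogenic cells had a peak centred 124 bp upstream of the TSS (chr1:163313027-163314522) with 94 tags and a score of 270, and another centred 1877 bp into the gene, in intron 1, with 93 tags and a score of 243. LSD1(OE) cells had a peak 145 bp into exon 1 with 59 tags and a score of 73.9. Adipogenic cells had no promoter peak. The 3 promoter peaks had densities of 1.36 (1.10 to 1.67), 1.27 (1.03 to 1.56) and 1.10 (0.838 to 1.42) in that order. Where both libraries had a peak, the log2 ratio of LSD1(OE) to myogenic cells was −0.31 (−0.80 to 0.18). Myogenic cells also had a weaker upstream peak 8.07 kb before the TSS, with 34 tags and a score of 60.9.

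Intron 1 of Prrx1 held the strongest peak of the gene in myogenic and in adipogenic cells, in the region at 40.5 kb (chr1:163271875-163274399). Its score was 409 with 136 tags in myogenic, 127 with 102 tags in adipogenic and 156 with 70 tags in LSD1(OE) cells. The densities were 1.38 (1.16 to 1.64), 1.05 (0.858 to 1.28) and 1.21 (0.943 to 1.53). The called lengths differed, and without division by length the myogenic peak held 2.95 tags per 1000000 ChIP tags against 1.60 and 1.27. The log2 density ratio was −0.40 (−0.78 to −0.01) for adipogenic and −0.19 (−0.63 to 0.23) for LSD1(OE) over myogenic cells, close to the medians of −0.32 and −0.19 over all shared regions. The neighbouring region at 38.4 kb was the single region found in adipogenic cells alone, with 73 tags, a score of 106 and an FDR of 0.16%.

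In the region at 61.3 kb (chr1:163251582-163253164), LSD1(OE) cells had the strongest Prrx1 peak of that library. It had a score of 270 with 106 tags, against 54.7 with 30 tags in myogenic and 54.2 with 54 tags in adipogenic cells. The densities were 1.31 (1.07 to 1.58), 1.04 (0.703 to 1.49) and 0.971 (0.730 to 1.27) in that order. The log2 density ratio was 0.43 (−0.06 to 0.93) for LSD1(OE) over adipogenic cells and 0.33 (−0.27 to 0.96) for LSD1(OE) over myogenic cells, and both intervals include 0. These ratios were higher than in 89.4% and 96.0% of shared regions. The called lengths differed, at 1470 bp in LSD1(OE), 624 bp in myogenic and 870 bp in adipogenic cells. Without division by length, on the scale given for Msx1, the peaks held 1.92, 0.650 and 0.845 in that order. These values lay further apart than the densities. Intervals of ratios without this division were not computed, so that the intervals including 0 hold for the densities only. The peaks of this region had their centre in intron 4 of Prrx1. At both of the intronic regions that all libraries shared, the intervals of the myogenic and LSD1(OE) densities overlapped.

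The remaining Prrx1 peaks in intron 1 were weak. The regions at 32.9 and 31.4 kb were shared by myogenic and LSD1(OE) cells with scores from 50.4 to 72.0, and LSD1(OE) cells alone had peaks at 48.7, 28.2 and 6.98 kb with scores of 54.8, 79.9 and 59.6. Myogenic cells alone had a peak at 21.6 kb with a score of 50.6. Of these regions, 4 lie within Gm20471, a predicted noncoding gene on the opposite strand.

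**Figure D3:**
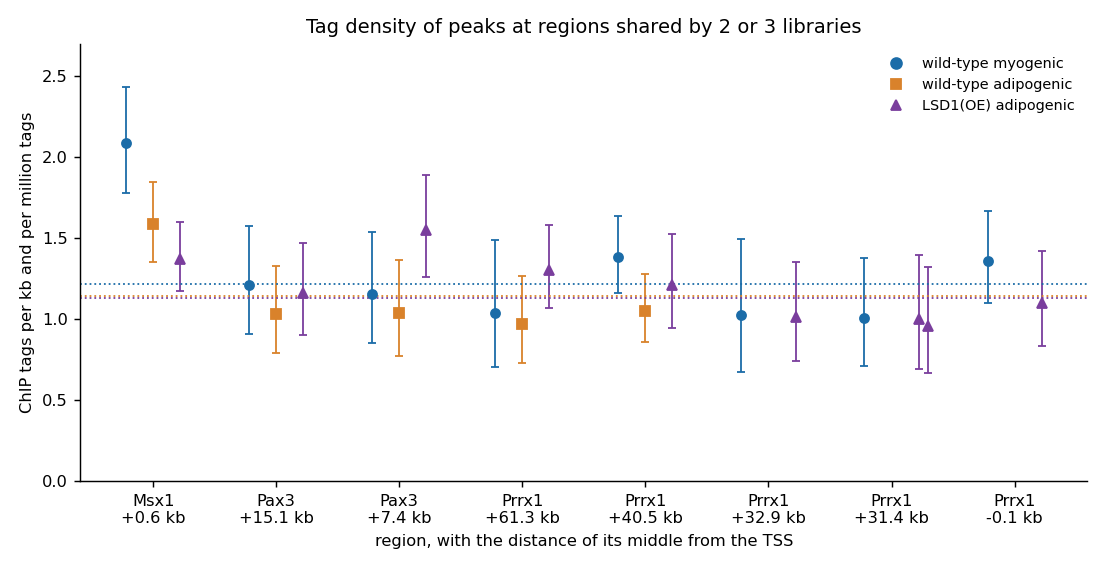
Tag density (tags per kb of peak and per 1000000 ChIP tags) at the 8 regions with a peak in more than 1 library, with 95% exact Poisson intervals of the tag count and dotted lines at the library medians of all peaks. Msx1 is highest in myogenic cells, where its interval of 1.78 to 2.43 lies above that of LSD1(OE) cells, and at the other regions the intervals of the libraries overlap, although the Pax3 region at 7.41 kb is highest in LSD1(OE) cells. Overlap of such intervals does not compare libraries. The log2 ratio interval was 0.08 to 1.10 for LSD1(OE) over adipogenic cells at this Pax3 region. It was −0.78 to −0.01 for adipogenic over myogenic cells at the Prrx1 region at 40.5 kb.

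Meox1 (chr11:101877510-101894354, minus strand) had 1 peak in myogenic and 1 in LSD1(OE) cells, at opposite ends of the gene, and none in adipogenic cells. The myogenic peak (chr11:101869745-101870394) lay beyond the end of the gene, 24.3 kb from the TSS. It held 34 tags and scored 74.6, at an FDR of 0.22%. The LSD1(OE) peak (chr11:101894946-101895581) lay at the promoter, 909 bp upstream of the TSS. It held 34 tags and scored 51.6, at an FDR of 0.42%. The latter score was higher than that of 3.61% of LSD1(OE) peaks. Lbx1 (chr19:45232684-45236841, minus strand) had 1 peak, in myogenic cells, centred 67 bp into exon 1 (chr19:45236488-45237061), with 28 tags, a score of 55.7 and an FDR of 0.35%. Its tag count was 1 above the smallest of any myogenic peak. The Meox1 and Lbx1 peaks were also lost when the score was divided by the scaling factor and kept at 50 or more.

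No peak was found in the windows of Pitx1 (chr13:55825054-55831425), Msx2 (chr13:53466881-53472780) and Meox2 (chr12:37108540-37179534). The nearest peak to Pitx1 was 97.4, 97.4 and 97.6 kb from the gene in the 3 libraries, and 18.1%, 30.0% and 22.0% of all genes were as far from a peak. For Msx2 the distances were 258, 253 and 248 kb, reached by 10.5%, 17.9% and 12.9% of genes. For Meox2 they were 884, 1275 and 1534 kb, reached by 3.58%, 3.91% and 2.02% of genes. Meox2 was thus the most isolated of the 9 genes in every library. In adipogenic cells, which had the fewest peaks, the nearest peaks to Pax7, Meox1 and Lbx1 were 20.3, 28.1 and 127 kb from the gene.

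**Figure D4:**
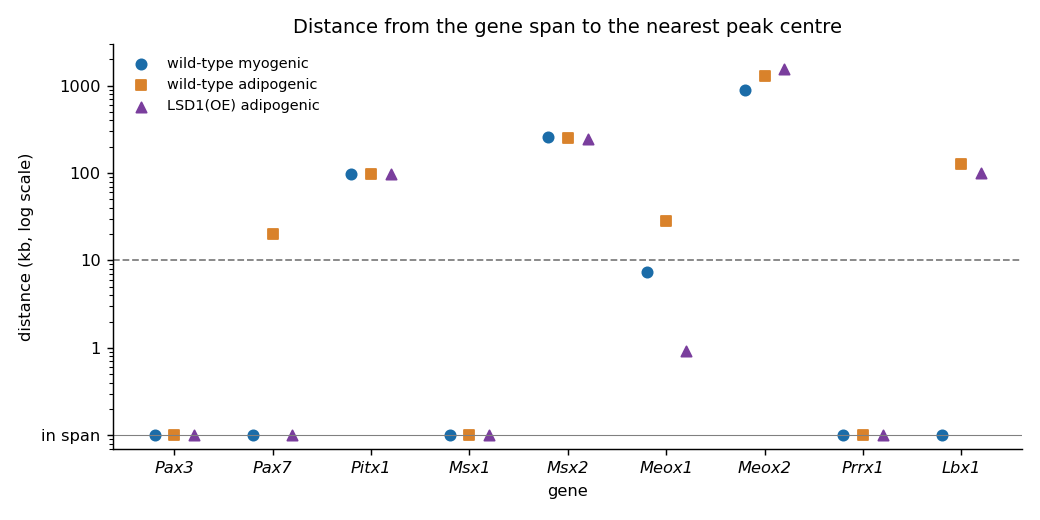
Distance in kb (log scale) from each gene span to the nearest peak centre by library, with the window limit of 10 kb dashed and genes that hold a peak centre drawn on the line "in span". Meox2 is the farthest from a peak in all 3 libraries, followed by Msx2.

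A promoter peak, with its centre within 2000 bp of the TSS, was present at Msx1, Prrx1 and Lbx1 in myogenic cells, at Msx1 in adipogenic cells, and at Msx1, Prrx1 and Meox1 in LSD1(OE) cells. Of all genes, 46.8%, 27.0% and 37.3% had one. Under each of the stricter peak limits, with equal numbers of peaks and with unscaled scores, Msx1 was the 1 gene left in LSD1(OE) cells. The share of all genes left under those settings was not computed. CpG content was compared after the peaks had been seen, as the ratio of observed to expected CG dinucleotides within 500 bp of the TSS. The ratio was above 0.6 for Msx2 (0.905), Pax7 (0.741), Pitx1 (0.730), Pax3 (0.671) and Msx1 (0.666), and of these 5 genes Msx1 alone had a promoter peak. Of the 11853 genes above 0.6, 79.6% had a promoter peak in myogenic, 48.1% in adipogenic and 64.3% in LSD1(OE) cells. The ratio was just under 0.6 for Lbx1, 0.455 for Prrx1, 0.444 for Meox2 and 0.425 for Meox1. Of the genes at 0.6 or below, 19.6%, 9.54% and 15% had a promoter peak. By this ratio, Prrx1 and Meox1, the latter in LSD1(OE) cells, were thus CpG-poor promoters with a peak. The Meox1 peak, with its summit 963 bp upstream of the TSS, lay wholly outside the bases covered by the ratio. Its summit window held 1 CG dinucleotide at 55.5% GC. Msx2, with a ratio reached by 8.32% of genes, had no promoter peak. At Prrx1, the myogenic promoter peak centred 1877 bp into the gene had its summit outside the bases covered by the ratio. Its summit window held 12 CG dinucleotides at 64.5% GC, against a library median of 3. The summit windows of the myogenic peak upstream of the TSS and of the LSD1(OE) promoter peak each held 4, at 39.0% and 56.0% GC.

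**Figure D5:**
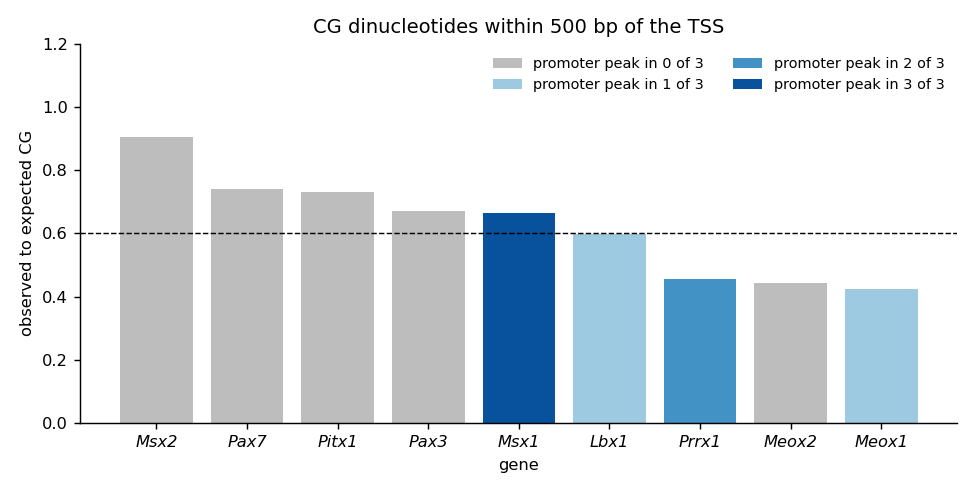
Ratio of observed to expected CG dinucleotides within 500 bp of the TSS for the 9 genes, shaded by the number of libraries with a promoter peak, with the value 0.6 dashed. Of the 5 genes above 0.6, Msx1 alone is shaded as having a promoter peak.

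Motifs were searched on both strands of the 200 bases around each of the 34 summits, where peaks of a shared region repeat much of the same sequence and CAGCTG is itself an E-box. An E-box (CANNTG) was found at 22 summits (64.7%), against 67.1%, 68.7% and 68.5% of all summit windows of the myogenic, adipogenic and LSD1(OE) libraries. CAGCTG was found at 7 (20.6%), against 19.2%, 21.9% and 19.1%. The homeodomain core TAATTA was found at 2 (5.88%), against 2.41%, 2.22% and 2.29%, in both cases in Prrx1, and the paired-type palindrome of TAAT and ATTA around 3 bases at none. TGANTCA was found at 3 (8.82%), against 13.6%, 14.7% and 13.0%, and GGAATG of TEAD factors at 4 (11.8%), against 12.3%, 11.6% and 11.4%. AGAACA of the glucocorticoid receptor was found at 4 (11.8%), against 14.0%, 13.4% and 14.4%, and the GC box GGGCGG at 5 (14.7%), against 16.3%, 20.4% and 16.2%.

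Of 7 other Pax genes (Pax1, Pax2, Pax4, Pax5, Pax6, Pax8 and Pax9), 2 had a peak in each library and none had a promoter peak in any. Of 18 other mesenchymal homeobox genes, 9 had a peak in myogenic, 9 in adipogenic and 12 in LSD1(OE) cells, and 6, 7 and 7 had a promoter peak. In all 3 libraries a promoter peak was found at Pitx3, Prrx2, Dlx1, Dlx2, Dlx3 and Shox2, with the strongest at Dlx2, a distal-less factor of jaw and limb, at scores of 1473, 771 and 1936. Prrx2, the relative of Prrx1, had promoter scores of 469, 89.0 and 235. Pitx3 had 339, 236 and 305, Dlx1 589, 306 and 657, Dlx3 972, 661 and 711, and Shox2 1199, 272 and 390. Promoter peaks in 1 library were found at Msx3 in adipogenic cells (77.7) and at Dlx4 in LSD1(OE) cells (67.0). Dlx1 and Dlx2, and Dlx3 and Dlx4, are neighbours, so that their windows overlap.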

How the data were processed

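Lsd1 ChIP-seq of C2C12 cells comprised 3 ChIP and 3 input libraries, 1 of each per condition, grouped by the sample labels. The authors sequenced 50 bp single reads, mapped them to mm10 (the methods name Bowtie and the labels Bowtie2) and called peaks with MACS 1.4.2 against the input of the same condition at a p cut-off of 1e-05. Each deposited peak comes with its tag count (not normalized), a score of 10 times −log10 p, a fold enrichment relative to local background, and an FDR in percent. Every deposited peak had an FDR below 1%. The deposited BED files held the same peaks and scores and were not used further.

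From these lists, peaks were assigned to gene windows and TSSs of curated RefSeq transcripts (GRCm38.p6, 31647 TSSs), and peaks of different libraries that overlapped by at least 1 bp were merged into regions. Densities are tags per kb of the called peak and per 1000000 filtered ChIP tags. Their intervals are exact Poisson ones, and those of log2 ratios are exact binomial (Clopper-Pearson). With 1 library per condition, no test between conditions was made. Printed sequences follow the strongest peak of a gene, moved to the bases before the TSS where the summit lay in a UTR, and 1 sequence and 1 related gene are not reported here. The members and the lists of related genes were chosen with earlier results of these data known. Alternatives were stricter peak limits, equal peak numbers, unscaled scores, other windows and placements, and other density scales. The steps were tested on simulated data. Python 3.11.15 with NumPy 2.4.6, pandas 2.3.3 and SciPy 1.17.1 was used. RNA-seq was not analysed here.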

Additional observations from a re-analysis of the deposited data

Results flagged for a closer look

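Peaks between 10 and 50 kb from the gene span lie outside the windows in which peaks were counted. They were present beside 5 of the 9 genes, and the share of all genes with a peak at that distance was not computed. The highest score among them was 2481 at Pax3 in LSD1(OE) cells, 603 at Prrx1 in myogenic cells, 337 at Meox1 in adipogenic cells, 213 at Pax7 in myogenic cells and 55.9 at Lbx1 in myogenic cells. They had been called against the input of the same condition. Their part in the regulation of these genes was not tested.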

How the results depend on the processing

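Counts of weak peaks moved with the peak limits. With an FDR limit of 0.1%, 3 genes in myogenic and 3 in LSD1(OE) cells had a peak, the peaks numbered 5, 2 and 5 (myogenic, adipogenic, LSD1(OE)), 1 gene in LSD1(OE) cells had a promoter peak and 2 regions were shared by all 3 libraries. With a score of at least 100 these values were 3 and 3 genes, 6, 3 and 5 peaks, 1 gene and 2 regions. With equal numbers of peaks (18893 per library), 2 and 3 genes, 4 and 5 peaks (myogenic, LSD1(OE)), 1 gene and 2 regions remained. With scores divided by the scaling factor, 3 and 3 genes, 6 and 5 peaks, 1 gene and 3 regions remained. With a flank of 50 kb, 5 genes had a peak in adipogenic cells, the peaks numbered 34, 13 and 25, and 8 regions were shared. In the other settings, the counts over all genes together stayed within 1.5 times, while Meox1 alone lost its LSD1(OE) peak with a flank of 0 kb and its myogenic peak with 0 or 5 kb.

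The median log2 density ratio at shared regions was −0.23 for adipogenic over myogenic (5 regions), 0.20 for LSD1(OE) over adipogenic (5) and −0.05 for LSD1(OE) over myogenic cells (8). It changed sign to 0.92, −0.52 and 0.38 per 1000000 tags in peaks, to 0.092 (adipogenic over myogenic) and 0.14 (LSD1(OE) over myogenic) relative to the median of all shared regions, and to 0.29 (LSD1(OE) over myogenic) without division by length. The first 2 of these scales move every region by the same amount, and relative to all shared regions the LSD1(OE) to adipogenic median stayed positive at 0.077. Msx1 kept 1 peak per library in all alternatives, and Pitx1, Msx2 and Meox2 kept 0. No paired analysis was possible because each condition has 1 ChIP library and no test was made. The smallest called peaks held 27, 35 and 30 tags, a limit that depends on the peak calling as well as on depth.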

Other observations

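The strongest Lsd1 peak near any of the 9 genes lay outside the windows, 19.6 kb upstream of the Pax3 TSS. In LSD1(OE) cells this region (chr1:78215464-78218029) held 381 tags with a score of 2481, which 91 of the 33533 LSD1(OE) peaks exceeded. In wild-type adipogenic cells the peak there held 226 tags with a score of 504 and ranked below 899 peaks of that library. In myogenic cells it was split into a peak of 112 tags with a score of 502 and another of 71 tags with a score of 199. The densities were 2.69 tags per kb and per 1000000 ChIP tags (95% exact Poisson interval 2.43 to 2.97) in LSD1(OE), 1.50 (1.31 to 1.71) in adipogenic, and 1.84 (1.51 to 2.21) and 1.34 (1.05 to 1.69) in myogenic cells. The nearest TSS was that of Gm2102, a gene upstream of Pax3, so that the peak cannot be assigned to Pax3 by distance.

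Other strong regions lay outside the windows of Msx1, Prrx1, Pitx1 and Meox1. A pair of regions about 51.1 and 55.3 kb upstream of Msx1 had peaks in all 3 libraries, with scores of 704 and 456 in myogenic and 156 and 172 in adipogenic cells. In LSD1(OE) cells the first was split into peaks scoring 213 and 217, and the second scored 354. The nearest TSS to both regions was that of Gm20052. LSD1(OE) cells alone had a peak 67.1 kb beyond the end of Msx1, nearest to the TSS of Cytl1, with a score of 466. Downstream of Prrx1, a region 22.9 kb beyond the end of the gene had scores of 603 in myogenic, 173 in adipogenic and 527 in LSD1(OE) cells. The nearest peak to Pitx1 had its closest TSS at Pcbd2 and scores of 658, 271 and 289. A region about 90.3 kb upstream of Meox1, nearest to the TSS of Dusp3, had scores of 498 in myogenic, 312 in adipogenic and 775 in LSD1(OE) cells, and another 92.3 kb beyond the end of Meox1, nearest to Etv4, had 389, 135 and 471. Msx2 and Meox2 had no peak within 100 kb in any library.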
